A study of Rattus norvegicus with 12 samples.

Results

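The oxidative phosphorylation subunits are the nuclear genes for complexes I to IV of the respiratory chain and for the ATP synthase. Here they are the genes with a probe set of their own whose symbol begins with Nduf, Uqcr, Atp5, Cox4, Cox5, Cox6, Cox7 or Cox8, or is Sdha, Sdhb, Sdhc or Sdhd. That rule gave 86 of the 14218 genes with such a probe set. Each gene was read from its probe set with the highest mean over the arrays. Complex I had 36 genes, its assembly factors (the Ndufaf genes) 6, complex II 4, complex III 7, complex IV 17 and the ATP synthase 16. Genes were assigned by symbol, so complex I includes Ndufa4 and Ndufa4l2, and complex IV includes the pseudogene Cox6c-ps1. A further 7 probe sets that match both a gene of these families and a near-identical copy were left out. Of their genes Cox5a is a member through another probe set, and Atp5mc1, Atp5mc2, Cox7a2, Uqcrb, Ndufs5 and Ndufa10 are not among the 86.

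Right lungs of 12 rats were measured on Affymetrix rat arrays, 3 rats in each of 4 groups. The rats were Dahl Salt Sensitive (SS), an inbred strain that becomes hypertensive on a high salt diet, or Brown Norway (BN), an inbred strain often used as its contrast. Within each strain the lungs came from control rats or from rats given HTV, an abbreviation for a kind of ventilation that the labels leave unexplained. The animals weighed 250 to 350 g, no age was given, and no allele or drug was named for any group. All lungs were flushed with saline through the pulmonary artery before freezing. A description common to all 12 samples mentions room air and ventilation, so the labels do not settle whether control rats were ventilated. The design compares control with HTV lungs within each strain, and the strains with each other.

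The respiratory chain passes electrons from NADH (through complex I) and succinate (through complex II) to ubiquinone, on through complex III to cytochrome c, and through complex IV to oxygen. Complexes I, III and IV pump protons across the inner mitochondrial membrane, and the ATP synthase lets them return to make ATP. The subunits are coded in the nucleus and in mitochondrial DNA, and only nuclear genes are members here. Several complex IV subunits exist in a general form and in a form of particular tissues: Cox6a2, Cox7a1 and Cox8b are heart and skeletal muscle forms, and Cox4i2 is a form found above all in lung and linked to oxygen sensing in pulmonary vessels. In bulk lung RNA, fewer cells of a type and less RNA per cell cannot be told apart.

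Values are deposited MAS5 intensities, a brightness per probe set on a linear scale. Differences were fitted after adding 16 and taking log2, which makes changes of dim probe sets look smaller, and are given with their standard error (SE). A gene is said to have changed where limma's moderated test gave an adjusted p below 0.05 over all 18626 tested probe sets. Every group has n = 3. Of the 86 members 83 were bright enough to be tested. The testis-type isoforms Cox6b2 and Cox7b2 (intensities of 2.6 to 23.2 and 9 to 23.9) and the assembly factor Ndufaf1 (30.9 to 56.8) were not.

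One array stood apart, the third SS control lung, called SS control 3. It had the highest level of all 12 arrays for 53 of the 83 members, 63.9%, against 16.9% of all tested probe sets. It also lay past the midpoint toward BN at 13 of the 36 probe sets that separated the strains by over 1.5 log2 units in the other 11 arrays. The same count, made for each of the other 11 arrays in turn, was 0 of 21 to 25 probe sets. Its log2 ratio of 5-prime to 3-prime beta-actin signal, a measure of RNA integrity, was -1.41, the lowest of the 6 SS arrays. The ratio ranged from -1.41 to -0.23 in SS and from -1.47 to -0.88 in BN arrays. BN HTV 2 was the highest of its group of 3 for 69 members, 83.1% against 31.9% of all tested probe sets, and BN control 2 the lowest of its group for 61. The median intensity of an array was 58.5 to 68.1, and epithelial markers of the lung were bright throughout (summed intensity of 7 genes 18031 to 23757). Results that rest on SS control 3 are given with and without it.

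Subunit levels were highest in SS control lungs for complex I and the ATP synthase, while the 4 groups overlapped for the mean of complex IV. The mean log2 level of the 36 complex I genes was 8.996, 9.08 and 9.29 in SS control lungs, 8.85, 8.98 and 8.88 in SS HTV lungs, 8.90, 8.69 and 8.87 in BN control lungs and 8.65, 8.93 and 8.71 in BN HTV lungs. Each of the SS control arrays was above each of the other groups' arrays for these genes. For the 16 ATP synthase genes the group means were 9.95 ± 0.20 (SD) in SS control, 9.73 ± 0.031 in SS HTV, 9.65 ± 0.10 in BN control and 9.65 ± 0.14 in BN HTV lungs. The SS control arrays, at 9.82, 9.85 and 10.19, were again the 3 highest of the 12. A single member varied by a median SD of 0.21 over the 12 arrays, against 0.24 for all tested probe sets.

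**Figure D1:**
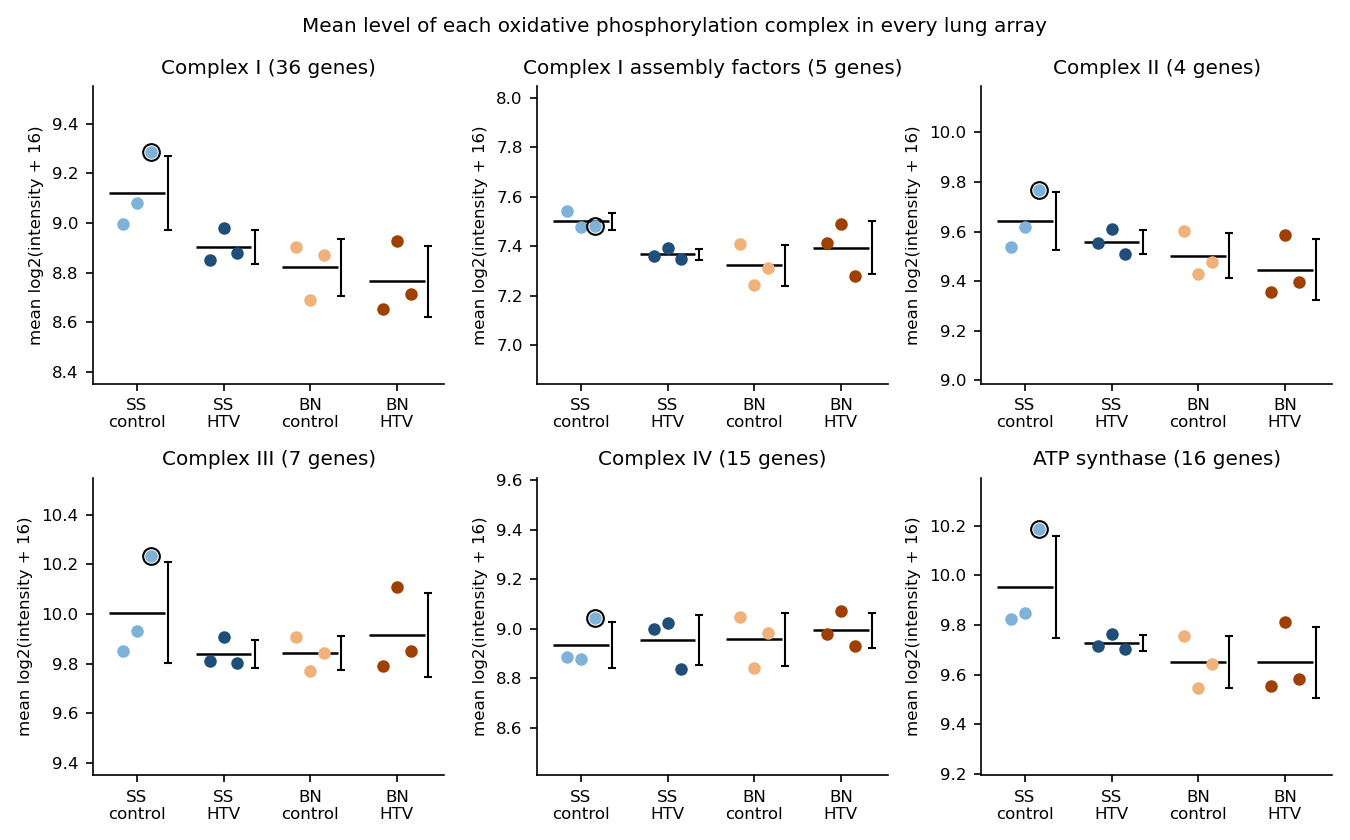
Mean log2(intensity + 16) of the tested genes of each complex (vertical axis) in every array, by strain and treatment. Points are arrays, lines are group means, bars to the right are 1 SD (n = 3) and the open ring marks SS control 3. In complex I and the ATP synthase all 3 SS control arrays lie above the other 9, and in complex IV the 4 groups overlap.

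The BN minus SS difference of these means in control lungs was -0.30 for the ATP synthase and -0.30 for complex I. It was -0.18 for the assembly factors, -0.16 for complex III, -0.14 for complex II and 0.020 for complex IV. The complex IV value joins parts whose means moved in opposite directions. The mean of its 10 general subunits was 9.904, 9.952 and 10.20 in SS and 9.901, 9.73 and 9.88 in BN control lungs. Of these genes 8 lay below 0, with a median of -0.17. The mean of its 4 tested tissue forms was 6.95, 6.85 and 6.86 in SS and 7.58, 7.25 and 7.41 in BN control lungs. The SD between arrays of a group, pooled over the groups, was 0.14 for the ATP synthase, 0.12 for complex I, 0.14 for complex III and 0.093 for complex IV. Without SS control 3 the difference was -0.19 for the ATP synthase, -0.22 for complex I, -0.19 for the assembly factors, -0.049 for complex III, -0.075 for complex II and 0.074 for complex IV. The differences of complexes II and III were then smaller than the pooled SD of their arrays (0.099 for complex II). These means are descriptions of the arrays, and no test was made on them.

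**Figure D2:**
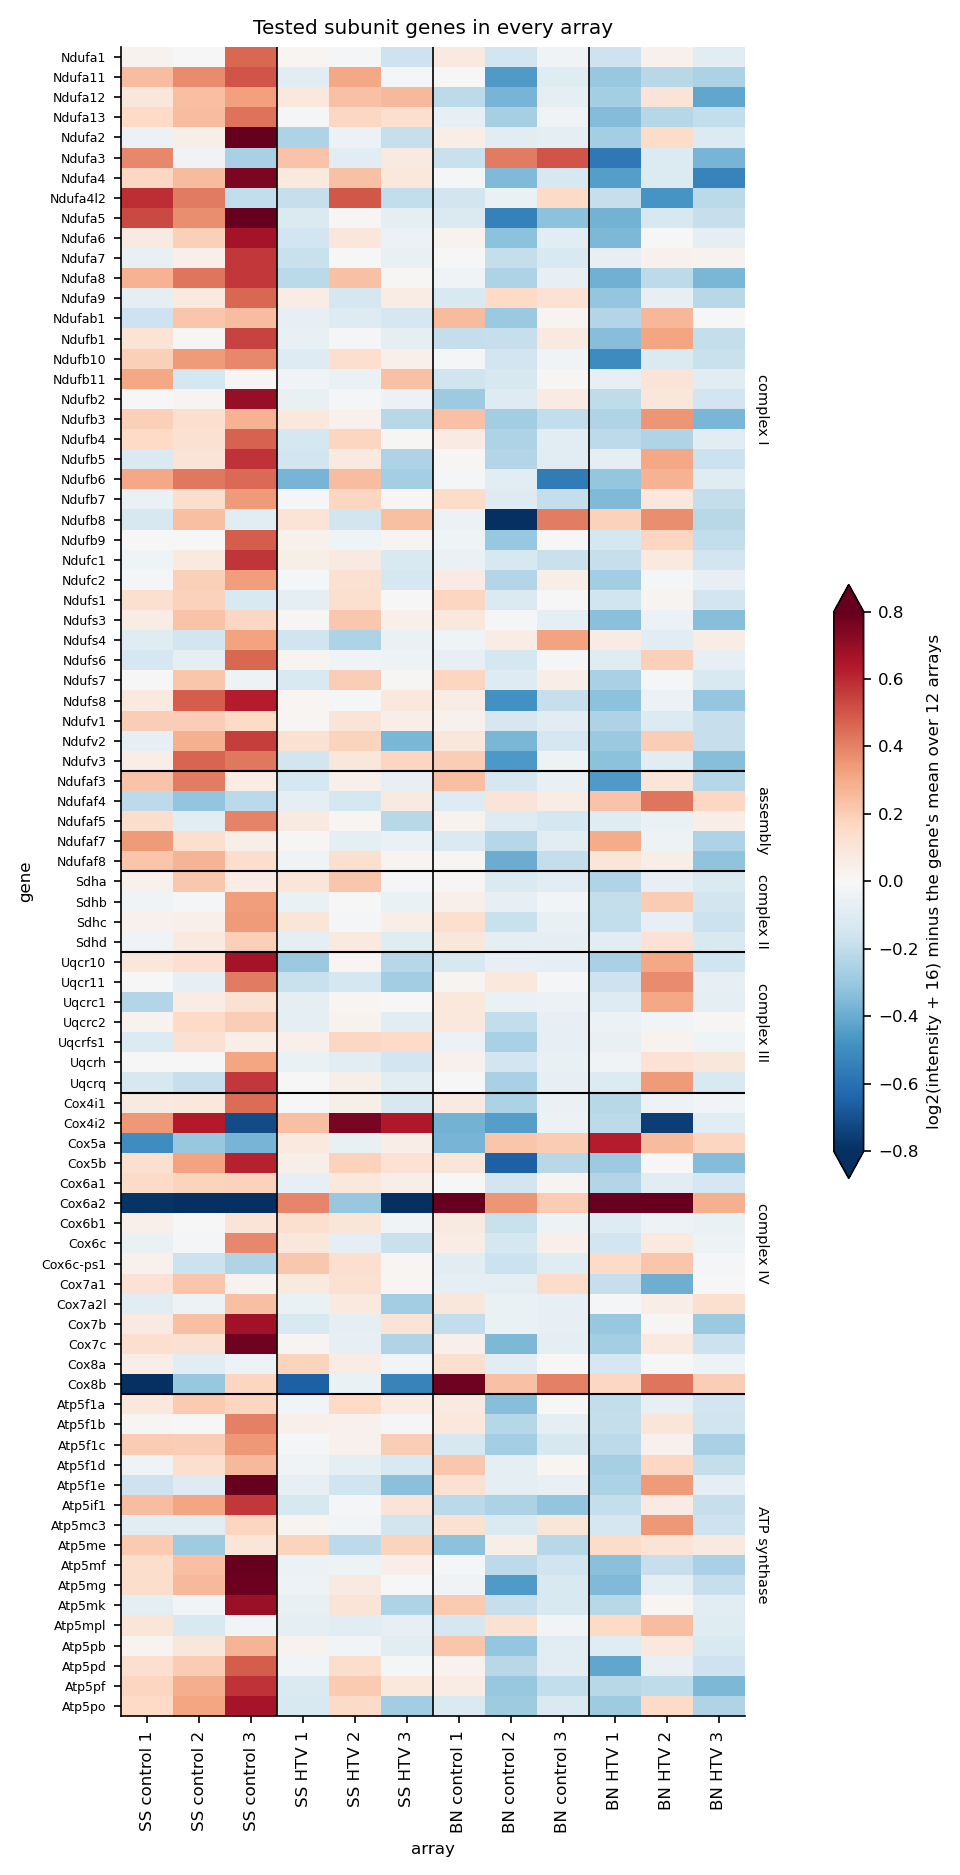
Each of the 83 tested genes (rows, grouped by complex) in each array (columns, grouped by strain and treatment), as log2(intensity + 16) minus the gene's mean over the 12 arrays; colours are clipped at 0.8 either way. SS control 3 is the reddest column, highest of all arrays for 53 genes. A correlation below 0 with the mean of the other genes was found for 9. They are Cox5a, Ndufaf4, Cox6a2, Cox6c-ps1, Atp5mpl, Atp5me, Cox4i2, Ndufa3 and Cox8b. Without SS control 3 it was above 0 for Cox4i2, Cox6c-ps1 and Ndufa3.

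In control lungs most members that differed between the strains were of complex I, the largest complex, or of the ATP synthase. The share of genes called was 19.4% in complex I, 20% in complex IV and 37.5% in the ATP synthase. Of the 83 members 14 were lower and 2 higher in BN than in SS control lungs (limma, adjusted p below 0.05), or 19.3%, while 12.3% of all tested probe sets passed in either direction. Lower calls were 14 of 83 against 5.9% of all tested probe sets, and higher calls 2 of 83 against 6.43%. The 3 arrays of each group did not overlap for 30 members lower in BN, against 15.6% of all tested probe sets, and for 3 higher in BN, against 17.7%. The median member difference was -0.22 and 72 members lay below 0, while the median of all tested probe sets was 0.023 with 47% below 0. Without SS control 3 the median member was at -0.14 and 63 members lay below 0, but only 9 passed, against 11.6% of all tested probe sets, and 8 of these were among the first 16. The count fell to 2 without BN control 2 (Ndufa5 and Atp5if1), against 4.06% of all tested probe sets, and to 5 without SS control 2 (these genes, Atp5f1c, Atp5mf and Atp5mg), against 6.21%. It fell to 7 without BN control 3 (Ndufa5, Atp5if1, Ndufa8, Ndufa11, Ndufa13, Atp5f1c and Cox6a2), against 7.3%. Ndufa5 and Atp5if1 passed in all 24 alternative settings. Of 4 endothelial markers 1 was higher in BN control lungs, Pecam1 (0.52 ± 0.11; limma, adjusted p = 0.00952). Their summed intensity was 5199 to 5496 in SS control, 6445 to 7168 in BN control, 5237 to 6441 in SS HTV and 6545 to 7509.8 in BN HTV lungs, with no overlap of the strains in either condition. Of 7 epithelial markers 1 was lower in BN control lungs, Aqp5 (-0.38 ± 0.099, adjusted p = 0.0261 in limma). The part of these cells in the subunit values was not tested.

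In complex I, 7 of 36 genes were lower in BN control lungs and 0 higher (limma, adjusted p below 0.05; 14 lower and 0 higher at an unadjusted p below 0.05). Ndufa5, an accessory subunit of the arm that takes up electrons from NADH, showed the largest fall. Its intensity was 222, 197 and 301 in SS control lungs and 136, 97.3 and 115 in BN control lungs. All BN values lay below all SS values, a difference of -0.94 ± 0.16 (SE), a 0.52-fold level, with a 95% interval of -1.28 to -0.61 and an adjusted p of 0.00247 in limma. The value was -0.78 without SS control 3 (adjusted p = 0.00515).

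Ndufa8, an accessory subunit on the intermembrane side, read 563, 624 and 690.2 in SS and 451, 385 and 440.1 in BN control lungs. The groups were apart, and the difference was -0.54 ± 0.13 (SE; limma, adjusted p = 0.0163; 0.0411 without SS control 3). Ndufa11, an accessory subunit of the membrane arm, read 474, 519 and 568 in SS and 395, 285 and 369 in BN control lungs, a difference of -0.56 ± 0.14 (limma, adjusted p = 0.019; 0.0477 without SS control 3). These genes still passed without the outlying array, as did Ndufa5. The core iron-sulfur subunit Ndufs8 (-0.60 ± 0.16) and the accessory subunits Ndufa13 (-0.40 ± 0.11) and Ndufa12 (-0.44 ± 0.13) passed with all arrays. So did Ndufa4 (-0.55 ± 0.16), counted here by its symbol though its protein is now assigned to complex IV. Adjusted p-values of these 4 genes were 0.0283 to 0.0495 in limma. None of these 4 passed without SS control 3, where their adjusted p-values were 0.0674 for Ndufa13, 0.0769 for Ndufs8, 0.0871 for Ndufa4 and 0.108 for Ndufa12. Of the 28 accessory subunits other than the Ndufa4 pair 5 were called lower, and of the 6 core subunits on the arrays only Ndufs8.

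The core subunits carry the flavin and the iron-sulfur clusters. Ndufv1, which binds NADH, read 635, 633 and 616 in SS control, 555, 592 and 573 in SS HTV, 565, 501 and 519 in BN control and 462.5, 511 and 483 in BN HTV lungs. The SS arrays lay above the BN arrays in both conditions, but neither difference passed (-0.24 ± 0.087 in control lungs, adjusted p = 0.0834 in limma, and -0.23 ± 0.087 in HTV lungs, adjusted p = 0.12). SS control 3 was not above its group for this gene. Ndufs8 read 292, 392 and 435 in SS and 289, 193 and 241 in BN control lungs, with the ranges less than 4 intensity units apart. Ndufv2 read 599.9, 767 and 930.0 in SS and 669, 483 and 569.7 in BN control lungs and overlapped. Ndufs1, the largest iron-sulfur subunit, was at -0.047 ± 0.12, Ndufs3 at -0.15 ± 0.11 and Ndufs7 at -0.02 ± 0.12, and the arrays of all 3 overlapped. Among the membrane arm subunits, Ndufb6 (-0.61 ± 0.19, adjusted p = 0.0514 in limma) and Ndufb10 (-0.37 ± 0.12, adjusted p = 0.0533) were closest to the threshold without passing.

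In the ATP synthase, 6 of 16 genes were lower in BN control lungs and 0 higher. Atp5if1, the small protein that blocks ATP hydrolysis when the proton gradient fails, read 402.5, 423 and 506 in SS and 288, 279.9 and 268 in BN control lungs. The lowest SS value lay far above the highest BN value, with a difference of -0.64 ± 0.12 (SE), a 0.643-fold level (95% interval -0.89 to -0.39; limma, adjusted p = 0.00439). Leaving out SS control 3 gave -0.54 (adjusted p = 0.0107). Atp5f1c, the central shaft of the rotor, read 884, 883 and 978 in SS and 699, 632 and 699.5 in BN control lungs, a difference of -0.43 ± 0.10 (limma, adjusted p = 0.0189; 0.0416 without SS control 3). The groups of this gene did not overlap.

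The other called ATP synthase genes belong to the membrane part and to the peripheral stalk, which holds the head still against the turning rotor. Atp5mg of the membrane part read 1020.5, 1106 and 1603 in SS and 905, 670.2 and 847 in BN control lungs, where SS control 3 was far above the other SS arrays. The stalk subunit Atp5pf read 722, 786 and 961 in SS and 666, 514 and 556 in BN control lungs. Differences were -0.60 ± 0.16 for Atp5mg, -0.50 ± 0.13 for Atp5pf, -0.53 ± 0.14 for the membrane subunit Atp5mf and -0.55 ± 0.15 for the stalk subunit Atp5po (limma, adjusted p = 0.0268 to 0.0359). Of these 4 only Atp5mf passed without SS control 3 (0.0422). The catalytic subunit Atp5f1b, read 1913, 1910.4 and 2523 in SS and 2019.7, 1619 and 1804 in BN control lungs and was not called (-0.21 ± 0.12, adjusted p = 0.272 in limma).

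**Figure D3:**
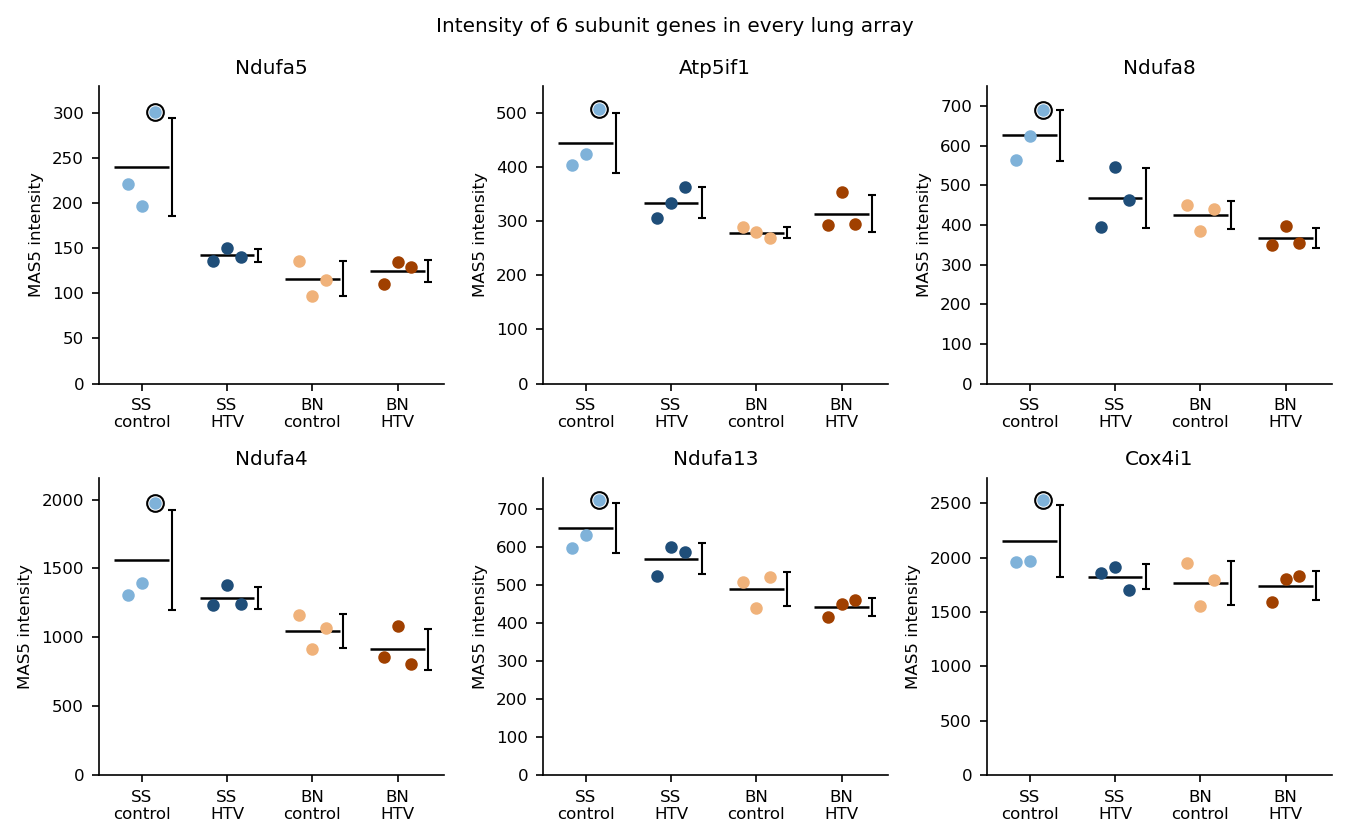
MAS5 intensity (linear axis from 0) of 6 subunit genes in every array, by group. Points are arrays, lines are means, bars to the right are 1 SD (n = 3) and the ring marks SS control 3. Ndufa5 reads 197 to 301 in SS control lungs and 97.3 to 149.9 in the other 9 arrays, and Cox4i1 overlaps more between groups.

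Complexes II and III, and the assembly factors, had 0 calls of 4, 7 and 5 genes in this comparison (limma; at an unadjusted p below 0.05, 0 for complex II, 1 lower for complex III, and 2 lower and 1 higher among the assembly factors). Sdha, the flavoprotein of succinate dehydrogenase, read 855, 970.4 and 872 in SS and 842, 771 and 784 in BN control lungs. These arrays were apart, but the difference of -0.17 ± 0.096 did not pass (adjusted p = 0.27 in limma). Sdhb read 641.5 to 831 in SS and 624 to 674 in BN control lungs, Sdhc 610.2 to 757 and 525 to 651, and Sdhd 838.5 to 979 and 811 to 912, and all 3 overlapped. Complex III was led by Uqcr10, a small subunit, at -0.39 ± 0.17 (adjusted p = 0.141 in limma), while Uqcrh, the hinge protein at the cytochrome c site, read 1292.5, 1287 and 1607 in SS and 1319.5, 1159 and 1236 in BN control lungs. In both, SS control 3 was the highest array. Uqcrq, a small subunit, was also highest in that array, with 736, 707 and 1203 in SS control against 809, 672 and 771 in BN control lungs. Uqcrfs1, the Rieske iron-sulfur protein, read 853, 1005 and 958 and 893, 766 and 880.1, and there SS control 3 lay between the others of its group. Among the assembly factors Ndufaf8 was at -0.40 ± 0.14 (adjusted p = 0.0741 in limma).

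In complex IV, 1 of 15 genes was lower and 2 were higher in BN control lungs. Cox5b, a zinc-binding subunit on the matrix side, read 736, 845 and 1038 in SS and 719.6, 422 and 574.5 in BN control lungs. The difference was -0.61 ± 0.17 (limma, adjusted p = 0.0355; 0.0965 without SS control 3). Cox4i1, the general form of the regulatory subunit, read 1957, 1967 and 2533 in SS and 1953, 1555 and 1789.7 in BN control lungs, and its difference of -0.28 ± 0.12 did not pass (adjusted p = 0.14 in limma). The general subunit Cox6a1 was at -0.22 ± 0.086, Cox7a2l, a factor of supercomplex formation, at -0.049 ± 0.11 and Cox8a at 0.043 ± 0.091, and none of the 3 passed. The genes that were higher in BN were the muscle forms Cox6a2 and Cox8b.

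**Figure D4:**
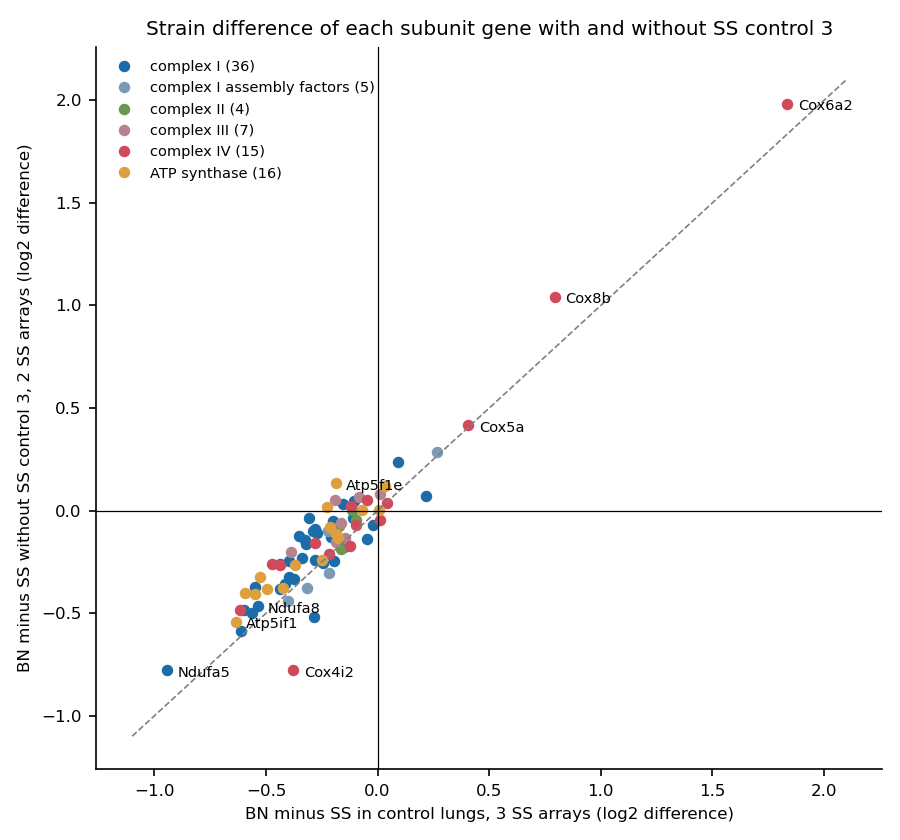
BN minus SS difference in control lungs of each of the 83 genes, on the log2(intensity + 16) scale, with all 3 SS arrays (horizontal axis) and without SS control 3 (vertical axis); colours mark complexes and the dashed line marks equal values. Most genes below 0 move toward 0 without that array, Ndufa5 goes from -0.94 to -0.78, and Cox4i2 moves away from 0, from -0.38 to -0.78.

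Cox6a2 read 41, 6.9 and 32.9 in SS control, 113, 63.5 and 20.7 in SS HTV, 189, 109 and 97.1 in BN control and 253.5, 337 and 103.5 in BN HTV lungs. BN control lungs lay above all SS control lungs, 1.84 ± 0.48 higher on the log2 scale or 3.57-fold (95% interval 0.80 to 2.87; limma, adjusted p = 0.0261). Each SS control value of Cox6a2 lay below 43.6, the limit for testing, which was set on the mean over all arrays. The gene reached that limit only through the other groups, so the call is no independent evidence of a strain difference. Cox8b read 50.7, 80.1 and 118 in SS control, 59.7, 98.6 and 65.9 in SS HTV, 188, 124 and 141 in BN control and 117, 144 and 120.1 in BN HTV lungs. Its difference in control lungs was 0.79 ± 0.24 or 1.73-fold (limma, adjusted p = 0.0428), but its adjusted p was above 0.05 in 14 of 24 alternative settings, among them the omission of any one of SS control 1, SS control 2, SS HTV 3 and the 6 BN arrays. The Cox6a2 call was lost without SS control 2, BN control 1 or BN control 2 and with the beta-actin ratio as a covariate (adjusted p up to 0.103 in limma). Without SS control 3, whose Cox8b level was nearest to the BN lungs, the Cox8b difference was 1.04 (adjusted p = 0.0111 in limma).

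Markers of cardiac muscle, which in rats also sheathes the pulmonary veins, moved with the strain too. Of 11 tested cardiac markers 10 were higher in BN than in SS control lungs (limma, adjusted p below 0.05), against 6.43% of all tested probe sets. In HTV lungs 6 were higher in BN than in SS, against 4.47%. The count in control lungs was 8 without SS control 3. The limit for testing was set on the mean over all arrays, and several of these markers reached it only through their BN arrays. Mb, for example, read 9.6 to 16.7 in SS control and 63.1 to 176.9 in BN control lungs. These counts are therefore no independent evidence of a strain difference. The summed intensity of the 12 cardiac markers with a probe set was 134.5 to 645 in SS control, 219.9 to 1459 in SS HTV, 1576 to 3513 in BN control and 1389.8 to 5503 in BN HTV lungs. Myh7, the slow beta form of cardiac myosin, read 1.6 to 53.2 over all arrays. Within a group the array with the most cardiac alpha-myosin Myh6 was also the highest for Cox6a2 in all 4 groups. In SS HTV lungs, for example, Myh6 read 226.5, 185 and 22.9 and Cox6a2 113, 63.5 and 20.7. For Cox8b this held in both BN groups but in neither SS group, where the array with the most Myh6 was its lowest. Skeletal muscle markers, 6 of 7 with a probe set, summed to 109.9 to 137 in SS control, 111.5 to 191 in SS HTV, 159.9 to 291.5 in BN control and 426 to 686 in BN HTV lungs. The brown fat marker Ucp1 read 55.7, 18.2 and 18.2 in SS HTV, 110.1, 12.1 and 146 in BN control, 3.3 to 13.4 in SS control and 7.4 to 30 in BN HTV lungs, so the 2 highest of the 12 arrays were BN controls. Its mean was below the limit for testing. Another brown fat marker, Elovl3, read 4.4 to 12.3 over all arrays. The part of these tissues in the Cox6a2 and Cox8b values was not tested.

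**Figure D5:**
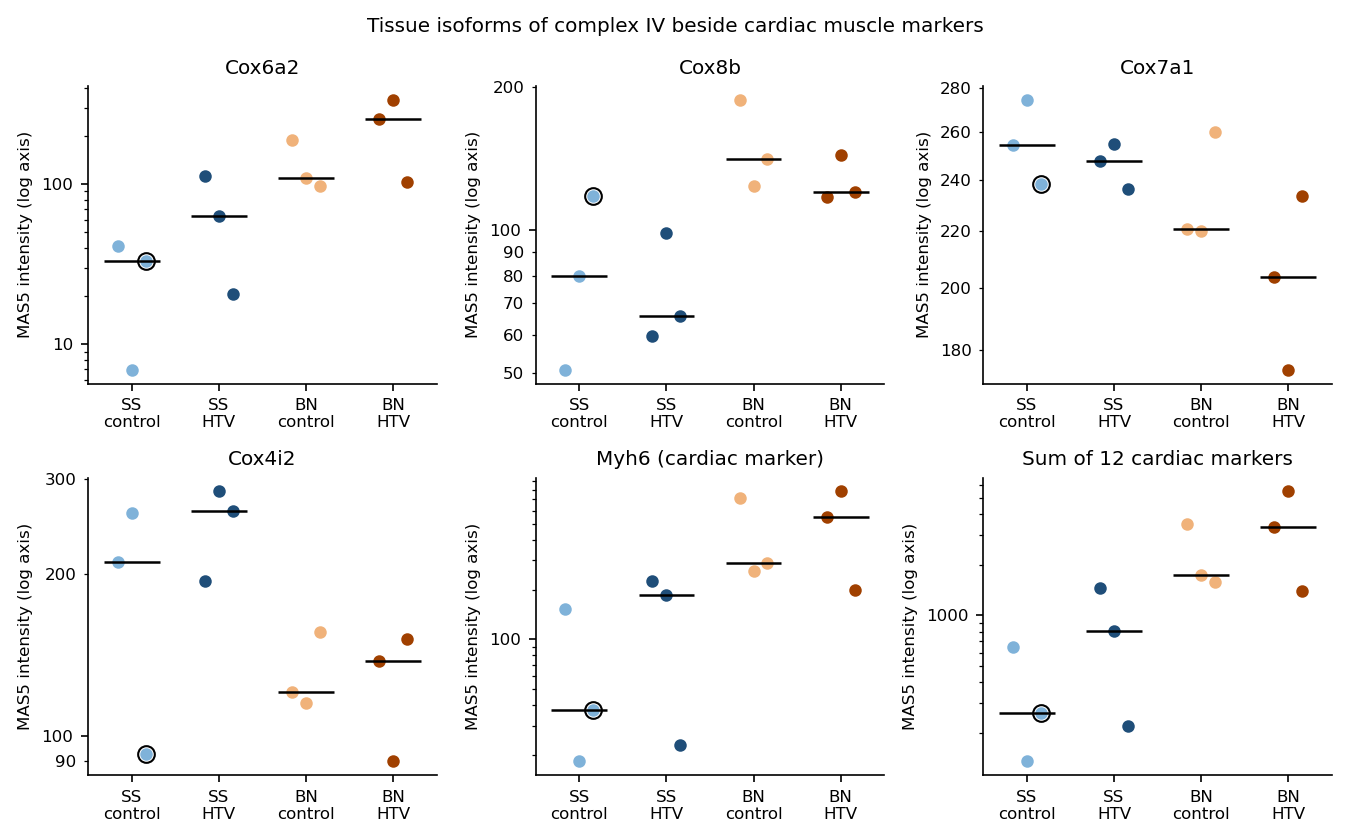
MAS5 intensity on a log axis of the complex IV tissue forms Cox6a2, Cox8b, Cox7a1 and Cox4i2, of the cardiac marker Myh6 and of the sum of 12 cardiac markers, in every array; lines are group medians and the ring marks SS control 3. Cox6a2 follows the order of Myh6 at the top of each group, Cox7a1 stays between 174.1 and 274.8, and SS control 3 lies with the BN arrays for Cox4i2.

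The remaining muscle form and the lung form behaved otherwise. Cox7a1 read 255, 275 and 238 in SS control, 248, 255 and 236 in SS HTV, 221, 220.1 and 260.2 in BN control and 204, 174 and 233.5 in BN HTV lungs, and it passed in none of the 6 comparisons. Cox4i2 read 210.1, 260.0 and 92.5 in SS control, 194, 285 and 262 in SS HTV, 121, 115 and 156 in BN control and 138, 89.7 and 152 in BN HTV lungs. All SS arrays but SS control 3 lay between 193.7 and 285.1, and SS control 3, at 92.5, lay with the BN arrays, which spanned 89.7 to 156.1. Its strain difference was -0.38 ± 0.29 in control lungs (limma, adjusted p = 0.408), -0.78 without SS control 3 (adjusted p = 0.035), and -0.89 ± 0.29 in HTV lungs, where SS control 3 has no part (adjusted p = 0.0754). Ndufa4l2, a hypoxia-induced relative of Ndufa4, read 243, 213 and 134 in SS control and 139, 149.8 and 175.5 in BN control lungs, with SS control 3 below all BN values, and did not pass (adjusted p = 0.402 in limma).

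Promoters of the members were set beside these results because many members were high in the same arrays. Of the 86 members 78 had a promoter in the RefSeq table (rat build GRCr8), 250 bases before to 50 after the start of the gene. Runs of 7 letters from the known sites of the mitochondrial gene regulators NRF1 (GCATGCG), GABP (CCGGAAG) and YY1 (ATGGCGG) were searched on both strands. The NRF1 run was in 11 promoters, 14.1% against 3.54% of all 27457 genes in the table, the GABP run in 22, 28.2% against 9.22%, and the YY1 run in 17, 21.8% against 5.22%. At least 1 of the 3 runs was in 35 members, or 44.9% against 16%. Only 3 members held all 3 runs, namely Atp5pf, Ndufa6 and Sdhb, or 3.85% against 0.0765%. In complex IV 3 of 13 promoters held a run, in each case that of GABP. A match is a run of letters, not a shown binding site, and the NRF1 run can overlap its own reverse complement. The stretches shown are the 250 bases before the start, all given 5′ to 3′ on the gene's strand, with runs found in capitals: Atp5pf with all 3 kinds, Ndufa13 with GABP and YY1 runs, Ndufa5 and Atp5if1 as the most firmly lower members in BN control lungs, and Cox6a2 as the muscle form higher there.
Atp5pf (chr11:37375102-37375351, minus strand): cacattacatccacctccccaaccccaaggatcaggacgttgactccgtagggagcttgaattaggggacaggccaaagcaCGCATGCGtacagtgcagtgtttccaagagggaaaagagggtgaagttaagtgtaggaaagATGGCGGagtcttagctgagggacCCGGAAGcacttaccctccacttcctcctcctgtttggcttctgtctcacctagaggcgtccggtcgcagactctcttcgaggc
Ndufa13 (chr16:19560276-19560525, plus strand): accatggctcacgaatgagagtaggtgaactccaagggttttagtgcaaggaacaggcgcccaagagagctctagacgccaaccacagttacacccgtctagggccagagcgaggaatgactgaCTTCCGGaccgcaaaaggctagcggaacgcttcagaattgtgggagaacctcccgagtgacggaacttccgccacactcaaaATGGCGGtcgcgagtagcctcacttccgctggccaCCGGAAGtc
Ndufa5 (chr4:53971236-53971485, minus strand): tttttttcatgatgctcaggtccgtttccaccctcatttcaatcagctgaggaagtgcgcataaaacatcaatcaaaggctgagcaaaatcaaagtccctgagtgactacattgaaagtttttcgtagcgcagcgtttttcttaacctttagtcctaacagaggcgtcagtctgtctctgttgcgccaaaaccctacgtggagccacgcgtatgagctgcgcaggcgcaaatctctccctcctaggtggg
Atp5if1 (chr5:150026678-150026927, minus strand): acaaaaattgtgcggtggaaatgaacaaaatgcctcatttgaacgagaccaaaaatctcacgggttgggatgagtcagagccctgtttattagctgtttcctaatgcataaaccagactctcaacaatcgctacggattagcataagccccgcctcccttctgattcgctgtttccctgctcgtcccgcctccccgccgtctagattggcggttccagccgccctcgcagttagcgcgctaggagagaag
Cox6a2 (chr1:192219717-192219966, minus strand): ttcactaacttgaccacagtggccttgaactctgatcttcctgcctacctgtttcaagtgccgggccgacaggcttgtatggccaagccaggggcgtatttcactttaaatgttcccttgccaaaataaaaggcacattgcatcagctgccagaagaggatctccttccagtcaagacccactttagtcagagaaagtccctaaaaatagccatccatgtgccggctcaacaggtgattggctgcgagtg
In Atp5pf the NRF1, YY1 and GABP runs follow each other toward the start, while the Ndufa5, Atp5if1 and Cox6a2 windows hold none of the runs, and a further YY1 run of Ndufa13 lies after the start, outside the stretch shown. Of the 14 members lower in BN control lungs 13 had a promoter in the table, and 8 of these held at least 1 run. That is 61.5%, against 44.9% of all 78 members and 16% of all promoters, and the difference was not tested.

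In HTV lungs 0 of 83 members differed between the strains (limma, adjusted p below 0.05), against 8.37% of all tested probe sets (4.47% higher and 3.9% lower). At an unadjusted p below 0.05 it was 3 higher and 12 lower, against 23.4% in either direction. The median member difference was -0.075, with 57 below 0, against -0.0095 and 51.7% for all tested probe sets. Arrays did not overlap for 22 members lower in BN, against 15.4% of all tested probe sets. The 5 members with the smallest p were Cox6a2, Ndufa13, Ndufa4, Cox4i2 and Ndufaf4, with values of 1.64 ± 0.48, -0.35 ± 0.11, -0.50 ± 0.16, -0.89 ± 0.29 and 0.32 ± 0.11 (SE; limma, adjusted p = 0.0519 to 0.0842). The count rose to 5 (2 higher) without SS control 3, where 12% of all tested probe sets passed, to 3 without BN HTV 2, and to 1 without SS control 2, SS HTV 1 or BN HTV 3.

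Ndufa4, a complex I gene by symbol whose protein is now assigned to complex IV, read 1235, 1379 and 1238.5 in SS and 855, 1079 and 803 in BN HTV lungs. Ndufa13, an accessory subunit also known as GRIM-19, read 525, 600.0 and 587 in SS and 415, 451 and 462 in BN HTV lungs. Both genes were apart between the strains with HTV as in control lungs, where SS read 597, 633 and 724.5 and BN 508, 439.5 and 522 for Ndufa13. Ndufa5 and Atp5if1, the leading genes of the control comparison, were at -0.17 ± 0.16 (adjusted p = 0.558 in limma) and -0.089 ± 0.12 (adjusted p = 0.706) in HTV lungs. Neither passed, and their SS HTV arrays lay below every SS control array. The assembly factor Ndufaf4 ran the other way and read 265, 254.5 and 296 in SS and 333, 384 and 318 in BN HTV lungs.

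HTV changed few subunit genes. In SS lungs 1 of 83 members fell and 0 rose (limma, adjusted p below 0.05), 1.2% of the members against 8.06% of all tested probe sets (4.16% lower and 3.9% higher). That gene was Ndufa5, at 222, 197 and 301 in SS control and 136, 149.9 and 141 in SS HTV lungs. The HTV values lay below all controls, -0.67 ± 0.16 on the log2 scale or 0.627-fold (95% interval -1.01 to -0.34; adjusted p = 0.0196). It was -0.51 and did not pass without SS control 3 (adjusted p = 0.0577; limma). The call was also lost without SS HTV 1 or SS HTV 3. The count of members was 2 without SS control 1 or BN HTV 2 and 3 without SS HTV 2.

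Values of most other members in SS lungs were also below 0, though they did not pass. The median member difference was -0.18 with 71 below 0, against -0.0053 and 50.7% for all tested probe sets. At an unadjusted p below 0.05 it was 17 lower and 1 higher, against 13.2% and 12.1%. By complex, 34 of 36 complex I genes, 15 of 16 ATP synthase genes, 6 of 7 complex III genes and 9 of 15 complex IV genes lay below 0. The median member was -0.096 without SS control 3, with 63 below 0, and 7 were lower and 1 higher at an unadjusted p below 0.05. The mean of the ATP synthase genes then differed by -0.11 in place of -0.23 and that of complex I by -0.13 in place of -0.22. The next smallest p-values were those of Atp5if1 (-0.39 ± 0.12, adjusted p = 0.0567 in limma), Ndufa8 (-0.42 ± 0.13, adjusted p = 0.0615), Atp5po (-0.46 ± 0.15, adjusted p = 0.0851) and Atp5mf (-0.41 ± 0.14, adjusted p = 0.0948).

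In BN lungs 0 of 83 members passed, against 5.86% of all tested probe sets (limma; 3% higher and 2.86% lower). At an unadjusted p below 0.05 it was 1 higher and 1 lower, against 8.55% and 11.4% of all tested probe sets, or 19.9% in either direction. The median member difference was -0.011 with 45 below 0, against -0.035 and 56% for all tested probe sets. Ndufa3, a small accessory subunit, read 348, 532 and 567 in BN control and 261, 365 and 302 in BN HTV lungs, which overlap (-0.60 ± 0.20, adjusted p = 0.101). Ndufaf4 read 261, 304 and 294 in BN control and 333, 384 and 318 in BN HTV lungs, which do not (0.25 ± 0.11, adjusted p = 0.208 in limma). Neither gene passed, nor did the core subunit Ndufs3 (-0.24 ± 0.11), Atp5me (0.28 ± 0.15) or Cox5a (0.33 ± 0.17), which came next. All 7 complex III genes lay above 0 (0.018 to 0.14) and all 4 complex II genes below 0 (-0.11 to -0.011), and none of the 11 passed or had an unadjusted p below 0.05. BN HTV 2 was the highest of its group for most members, and without it the median member was at -0.090. Without BN control 1 the count was 1, a lower gene, against 3.12% of all tested probe sets.

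Averaged over both strains, Ndufa8 fell and Cox5a rose with HTV among the 83 members, 2.41% against 15.8% of all tested probe sets (7.09% higher and 8.74% lower). At an unadjusted p below 0.05 in limma it was 4 higher and 7 lower, against 30.2% of all tested probe sets in either direction. The pseudogene Cox6c-ps1 was 1 of the 4 higher (0.24). Ndufa8 read 394, 546 and 464 in SS HTV and 349, 396 and 354 in BN HTV lungs, a mean difference of -0.31 ± 0.089 from the controls (limma, adjusted p = 0.0308). Cox5a, a subunit on the matrix side of complex IV, read 75.6, 88.9 and 83.8 in SS control, 120.3, 108 and 118 in SS HTV, 83.7, 135 and 133 in BN control and 184, 138 and 129.5 in BN HTV lungs. Its difference was 0.37 ± 0.12 (adjusted p = 0.0496 in limma), and its adjusted p was above 0.05 in 14 of 23 alternative settings. Another Cox5a probe set, which a copy of the gene shares and which is no member, had a mean intensity of 1275 and a difference of 0.0092 (adjusted p = 0.96 in limma). The Ndufa8 call held when SS control 1, BN control 2, SS HTV 2 or BN HTV 2 was left out and was lost without any of the other 8 arrays. The Cox5a call held without BN control 2, BN control 3 or BN HTV 3 and was lost without any of the other 9.

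Whether the response to HTV differed between the strains was tested as the BN change minus the SS change. It passed for 0 of 83 members and for 0 of all tested probe sets (limma, adjusted p below 0.05). At an unadjusted p below 0.05 it was 6 members higher and 1 lower, against 3.39% and 4.92% of all tested probe sets, or 8.31% in either direction. The median member value was 0.17, with 66 above 0 and 17 below, against -0.026 for all tested probe sets, of which 53.6% lay below 0. By complex, all 16 ATP synthase, 7 complex III and 5 assembly factor genes, 29 of 36 complex I genes and 7 of 15 complex IV genes lay above 0. The median was 0.056 without SS control 3, 0.080 without BN control 2, 0.092 without BN HTV 2 and -0.0093 without both SS control 3 and BN HTV 2. It was 0.047 with array weights, 0.11 with quantile normalization and 0.27 with median centring, which moved the median of all tested probe sets to 0.069. The smallest p-values belonged to Ndufa5 (0.77 ± 0.22, unadjusted p = 0.00372 in limma, adjusted p = 0.53) and Atp5if1 (0.55 ± 0.16, adjusted p = 0.53).

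Neutrophil markers rose with HTV beside these values. All 6 tested neutrophil genes rose in BN and 5 of 6 in SS lungs (limma, adjusted p below 0.05). The shares of all tested probe sets that rose were 3% and 3.9%. Mmp9 read 1.9 to 19.3 in control lungs and reached the limit for testing only through HTV arrays. These counts are therefore no independent evidence of a rise. In BN HTV 3 Mmp9 read 19.2, and Csf3r, at 197.8, lay below BN control 3 at 203.7. The summed intensity of the 6 neutrophil genes was 1371 to 2320.0 in SS control, 5283.5 to 8023 in SS HTV, 905 to 1581 in BN control and 2829.6 to 8355 in BN HTV lungs. All lungs also held T and NK cell signal. Markers of these cells summed to 674 to 967, 508 to 539.6, 494.5 to 521 and 362 to 410.2 in the same order. Of these markers 3 of 5 were lower in BN than in SS control lungs, against 5.9% of all tested probe sets. Their part in the subunit values was not tested.

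Other genes of mitochondrial energy metabolism were read from lists of regulators, assembly factors, tricarboxylic acid cycle enzymes and carriers. Of 16 tested regulators 2 fell and 0 rose with HTV in SS lungs, against 4.16% and 3.9% of all tested probe sets. Tfam, a transcription factor that packs mitochondrial DNA, read 270.5, 288 and 359.9 in SS control and 239, 198 and 182 in SS HTV lungs (-0.53 ± 0.14; limma, adjusted p = 0.0331), and 265, 202 and 218 in BN control and 241, 264 and 244 in BN HTV lungs (0.13 ± 0.14, adjusted p = 0.671). The groups were apart in SS and overlapped in BN lungs. Yy1, a transcription factor of many subunit genes, was the other (-0.35 ± 0.083, adjusted p = 0.0217 in limma). When SS control 3 was left out, Yy1 passed (adjusted p = 0.0479) and Tfam did not (-0.42, adjusted p = 0.101).

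Ppargc1a, the coactivator that drives mitochondrial gene programs, read 122, 125 and 107 in SS control, 147, 187 and 157 in SS HTV, 110.3, 121.5 and 134 in BN control and 125, 75.4 and 135 in BN HTV lungs and passed in none of the 6 comparisons. In BN lungs 1 of 16 regulators fell, against 2.86% of all tested probe sets. It was Twnk, the mitochondrial DNA helicase (-1.01 ± 0.24; limma, adjusted p = 0.0278). In control lungs 1 regulator was higher in BN, against 6.43% of all tested probe sets. It was Ppargc1b (0.61 ± 0.15; limma, adjusted p = 0.0227, and 0.0546 without SS control 3).

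Of 13 tested tricarboxylic acid cycle enzymes 4 were lower and 0 higher in BN than in SS control lungs, against 5.9% and 6.43% of all tested probe sets. They were Dld, the shared dehydrogenase subunit of several complexes (-0.75 ± 0.10; limma, adjusted p = 0.000646), Pdha1 of pyruvate dehydrogenase (-0.52 ± 0.12), and Idh3g and Idh3b of isocitrate dehydrogenase (-0.62 ± 0.15 and -0.41 ± 0.11). Of 34 tested assembly factors 3 were lower and 0 higher, against the same 5.9% and 6.43%. They were led by the complex II factor Sdhaf4 (-0.71 ± 0.12, adjusted p = 0.00256 in limma). Leaving out SS control 3 kept Dld, Pdha1, Idh3g and Sdhaf4 past the threshold and ended the calls of Idh3b (adjusted p = 0.0642), Higd2a (0.0585) and Acad9 (0.0543). In HTV lungs Dld (-0.52 ± 0.10), Sdhaf4 (-0.67 ± 0.12), Cox19 (-0.48 ± 0.13) and Twnk (-1.45 ± 0.24) were lower in BN than in SS. Adjusted p-values of these genes were 0.00268 to 0.0369 in limma. They made up 1 of 13 enzymes, 2 of 34 assembly factors and 1 of 16 regulators, against 3.9% of all tested probe sets. With HTV, 1 of 34 assembly factors fell in SS lungs, against 4.16% of all tested probe sets, and 1 in BN lungs, against 2.86%. In SS lungs it was Tmem126b of complex I (-0.45 ± 0.12, with an adjusted p of 0.0814 in limma without SS control 3). In BN lungs it was Cox19 of complex IV (-0.49 ± 0.13). Pdha1 rose in BN lungs (0.48 ± 0.12, adjusted p = 0.0325 in limma). Averaged over both strains 5 of 34 assembly factors and 3 of 16 regulators fell with HTV and 0 rose, against 8.74% and 7.09% of all tested probe sets. None of 8 carriers, among them Slc25a4, Vdac1 and Ucp2, passed in any comparison (limma; 1 at an unadjusted p below 0.05 in the control strain comparison, and 0 in the other 5). Cytochrome c1, coded by Cyc1, the only one of the 2 listed electron carrier genes that was tested, passed in none of the 6.

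Further probe sets gave a partial check. For 9 members there were 10 further probe sets, of which 5 were bright enough to be tested. The further probe set of Sdhd, with a mean intensity of 378, was lower in BN by 0.54 on the log2 scale in control lungs (limma, adjusted p = 0.0171) and in HTV lungs (adjusted p = 0.0194), while the member probe set of Sdhd was at -0.099 and -0.0021. The further probe sets of Ndufa7, Ndufaf7, Ndufv3 and Uqcrc2 passed in none of the 6 comparisons, nor did their members. Of the 7 shared probe sets, those of Ndufa10 (-0.72, adjusted p = 0.0126) and Ndufs5 (-0.56, adjusted p = 0.0468) were lower in BN control lungs. That of Ndufa10 was also lower in BN HTV lungs (-0.62, adjusted p = 0.0289 in limma), where that of Ndufs5 did not pass (-0.29, adjusted p = 0.344). Their signal cannot be split between the gene and its copy.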

How the data were processed

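The deposited values are linear intensities per probe set of 12 arrays; the submitters' processing notes name MAS5, with no version. Per the labels' protocols, RNA was extracted with Trizol and 6 µg was labelled with biotin. The mean between the 2nd and 98th percentile was 149.6 to 150.0 on each array, so the authors' scaling was kept. The precision is limited by the number of arrays.

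Probe sets were named from the platform annotation, only where it gave 1 gene. Of 31099 probe sets 57 controls were left out, and those whose mean intensity reached the 40th percentile (43.6) were tested on log2(intensity + 16). The 4 group means were fitted by lmFit and eBayes (trend = TRUE) of limma 3.58.1 under R 4.3.3, leaving 8 residual degrees of freedom. In each of 6 comparisons p-values took a Benjamini-Hochberg adjustment over all tested probe sets. They measure only the spread between these samples. The model was tested on simulated data. The members, lists and named genes were chosen with earlier results of these data known. The text names all members that passed, up to 5 with the smallest p in each comparison, and a panel of subunits, isoforms and regulators. Alternatives were pseudocounts of 1 and 64, other filters, other scalings, no trend, array weights, only the arrays compared, the mean of a gene's probe sets, and each array left out. A beta-actin covariate, and the omission of SS control 3 with BN HTV 2, were chosen after seeing the data.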

Additional observations from a re-analysis of the deposited data

Results flagged for a closer look

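For Atp5if1, the inhibitor of ATP hydrolysis, the HTV arrays lay on opposite sides of the controls in the strains, and the BN minus the SS difference between HTV and control was 0.55 on the log2 scale. Its intensity was 402.5, 423 and 506 in SS control and 306, 333 and 363 in SS HTV lungs, so all HTV arrays lay below all controls. It was 288, 279.9 and 268 in BN control and 293, 353 and 294.5 in BN HTV lungs, so all HTV arrays lay above all controls, by 293 against 288 at the nearest. Neither difference passed by itself (limma, -0.39 ± 0.12 in SS, adjusted p = 0.0567, and 0.16 ± 0.12 in BN, adjusted p = 0.502). The test of the difference between strains did not pass (limma, adjusted p = 0.530, and 0.355 to 0.774 over 23 alternatives).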

How the results depend on the processing

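With each array left out in turn, the number of members past the threshold was 2 to 17 for the strains in control lungs (16 with all arrays), 0 to 5 for the strains in HTV lungs (0), 0 to 3 for HTV in SS (1), 0 to 1 for HTV in BN (0), 0 to 2 for HTV averaged over strains (2) and 0 in every case for the interaction. With only the arrays compared it was 8 for the strains in control lungs, 3 for the strains in HTV lungs and 0 for HTV in SS. Without SS control 3 and BN HTV 2 together it was 10, 4 and 0 in the same order, and 1 for HTV averaged. Array weights gave 24 for the strains in control lungs, where median centring gave 21 and no filter 11, and array weights gave 6 for the strains in HTV lungs, 2 for HTV in SS, 1 for HTV in BN and 5 for HTV averaged. Quantile normalization gave 2 for the strains in HTV lungs and 5 for HTV averaged, and a pseudocount of 64 gave 1 for each. HTV averaged also gave 1 without a filter and 1 with the filter at the 60th percentile, and the mean of a gene's probe sets gave 2 for HTV in SS. Median centring moved the mean of complex IV genes to -0.077 in control lungs between strains and 0.12 in the interaction, and that of the assembly factors to -0.28 and 0.30. Without both arrays the interaction was 0.026 for the ATP synthase, -0.0034 for complex I, -0.11 for complex II and 0.031 for complex III. The cause of these shifts was not tested. Single members were followed only where they passed in a comparison or, where none did, as the 5 with the smallest p. Their direction was reversed in 0 of 809 further values, and 115 of these values lost a call. As members picked for small p-values they were unlikely to reverse, and those without a call had none to lose. The other named members were not followed in this way. No paired analysis was possible because the animals' labels are not shared between groups, and the numbers 1 to 3 used here only name the arrays of a group. How far dim members such as Cox6a2 lay above background is unknown, because no detection calls were read.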
